A study of Homo sapiens with 2 samples.

Results

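The enzymes that supply cells with deoxynucleotides were examined as a group of 9 genes, RRM1, RRM2, DCTD, DUT, TYMS, DTYMK, TK1, DCK and SAMHD1. They were found on the array through the RefSeq transcript recorded for each probe, and the group is 9 of the 15631 named genes measured with a probe whose signal on 1 or both arrays exceeded background clearly (the software's well-above-background flag). All 11 probes of these genes were kept, and all 11 were well above background on both arrays. The measurements came from HepG2 cells, an established human hepatocellular carcinoma line that retains many hepatocyte functions. One microarray was made from cells given dimethyl sulfoxide (DMSO, 1‰) as the vehicle control, and 1 microarray was made from cells given hawk tea extract (HTE), both for 24 h. The sample labels give 200 μg mL−1 HTE, whereas the study's text and the name of the deposited array give 300 μg mL−1, and these arrays do not settle which was used. No mutation, transgene or other agent is named for either group, and the study's text describes a somewhat lower cell viability at the dose. There was 1 array per condition, so the spread between cultures is unknown, and no test between the conditions, p value or standard deviation can be given.

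DNA synthesis needs balanced pools of the 4 deoxynucleoside triphosphates. Ribonucleotide reductase makes deoxynucleotides from ribonucleotides, a branch through dUMP makes thymidylate, salvage kinases phosphorylate deoxynucleosides taken up or recycled by the cell, and SAMHD1 breaks the triphosphates down again. Several of these enzymes are known to be made mainly by cells in S phase, whereas other enzymes supply non-dividing cells and mitochondria.

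The 130 bases before 1 annotated transcription start of 5 of these genes are given as context for the ratios, because RRM2, SAMHD1, TK1 and DUT had the 4 lowest HTE over DMSO ratios among the 9 genes and DCTD had the highest. The sequences are from RefSeq (GRCh38.p14), run 5′ to 3′ along the strand of the gene and end at the base before the start. They cover chr2:10122609-10122738 on the plus strand for RRM2, chr20:36951709-36951838 on the minus strand for SAMHD1, chr17:78187053-78187182 on the minus strand for TK1, chr15:48332067-48332196 on the plus strand for DUT and chr4:182917612-182917741 on the minus strand for DCTD. Capitals mark matches, on either strand, to the CCAAT box, to an E2F site and to the cell cycle homology region (CHR). RRM2 and TK1 each have 2 annotated starts in the table, DUT has 4 and DCTD has 2. The start with the most matches to these 3 motifs was chosen for the first 3 of these genes, and the first listed start was chosen for DCTD. This choice favours capitals in those 3 genes, and DUT starts 1, 2 and 3 held no match to the 3 motifs. RRM1 and DTYMK, with log2 ratios of −0.48 and −0.36, held CCAAT and CHR matches within 250 bases before their starts but are not printed. A link between these motifs and the ratios was not tested.
RRM2: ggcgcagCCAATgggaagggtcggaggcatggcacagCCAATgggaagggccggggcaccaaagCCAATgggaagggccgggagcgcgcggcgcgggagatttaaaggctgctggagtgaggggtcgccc
SAMHD1: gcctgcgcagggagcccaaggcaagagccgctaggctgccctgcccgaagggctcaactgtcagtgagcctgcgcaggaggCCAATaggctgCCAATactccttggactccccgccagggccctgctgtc
TK1: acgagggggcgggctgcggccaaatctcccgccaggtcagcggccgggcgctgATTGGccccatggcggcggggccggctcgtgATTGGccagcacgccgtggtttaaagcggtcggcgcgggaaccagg
DUT: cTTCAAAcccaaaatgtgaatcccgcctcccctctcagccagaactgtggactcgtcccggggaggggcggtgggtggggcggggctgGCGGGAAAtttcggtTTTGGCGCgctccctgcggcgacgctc
DCTD: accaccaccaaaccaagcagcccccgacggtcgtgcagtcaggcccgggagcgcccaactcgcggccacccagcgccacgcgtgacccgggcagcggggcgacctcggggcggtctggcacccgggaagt

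The stretch before RRM2 held 3 CCAAT boxes, at −123 to −119, −93 to −89 and −66 to −62 relative to the start. The stretches before SAMHD1 and TK1 held 2 each, those of TK1 on the opposite strand. DUT held 2 E2F matches, at −42 to −35 and −27 to −20, and a CHR match at −129 to −124. No letters are in capitals before DCTD.

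Over the whole promoter windows of 300 bases (250 before and 50 after each start, 15 windows for the 9 genes), 5 motifs were searched on both strands. E2F was taken as 1 of 4 forms, TTTCCCGC or TTTGGCGC or TTTCGCGC or TTTGCCGC, and CHR as TTTGAA or TTCGAA. No form of one motif contains another motif. E2F matches were found for 3 genes, DUT, TYMS (−39 to −32) and DCK (22 to 29), in 20.0% of the 15 windows and in 3.31% of all 35116 windows in the table. CCAAT was found for 5 genes, RRM1, RRM2, DTYMK, TK1 and SAMHD1, in 6 of the 15 windows against 34.6% of all. CHR was found for 3 genes, RRM1, DUT and DTYMK, in 20.0% against 16.4%. The GC box, GGGCGG, was found for 7 genes, in 73.3% against 45.0%, and TATAAA for TK1 alone, in 1 of the 15 windows against 4049 of all 35116. RRM2, TK1, DCTD and DUT contribute overlapping windows, so these shares are a description of the letters present. DCTD held GC boxes and no match to the other 4 motifs in either of its windows.

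**Figure D1:**
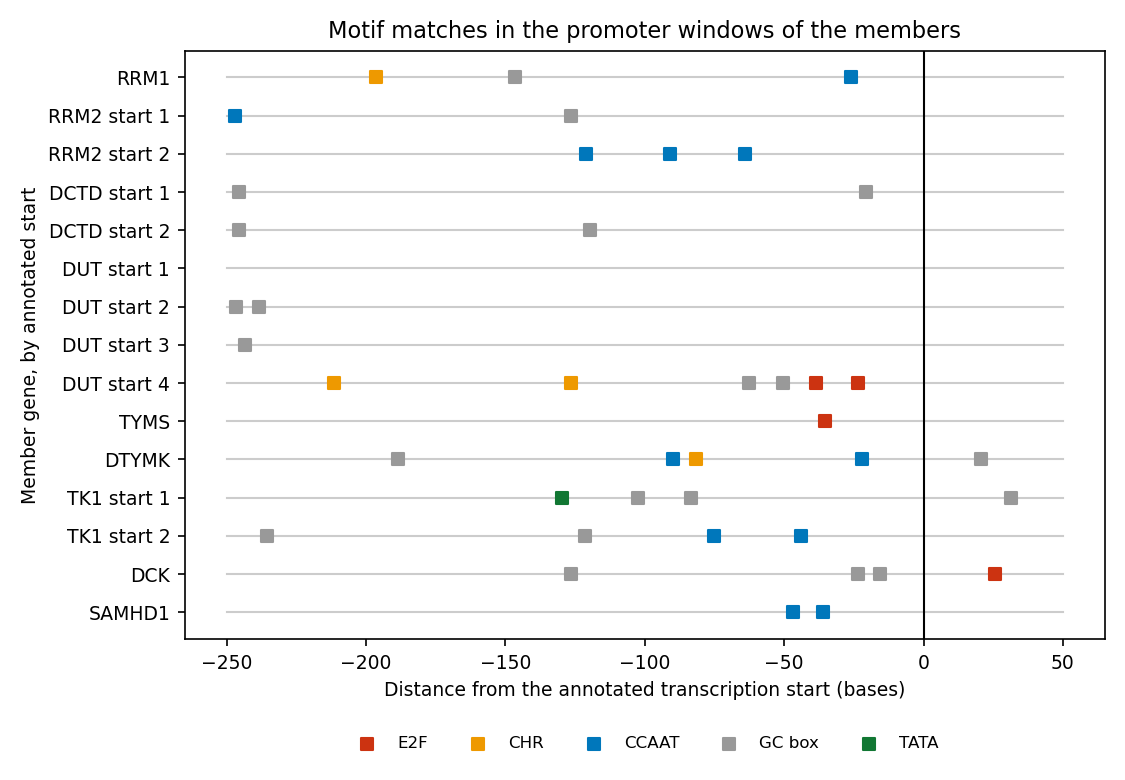
Matches to 5 motifs in the promoter windows of the 9 genes, by distance in bases from each annotated transcription start (0). Each line is 1 window from 250 bases before to 50 bases after a start, and each square is a match on either strand. The 3 CCAAT boxes of RRM2 lie before its start 2, and the E2F matches are in DUT start 4, TYMS and DCK.

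After HTE, the signal was lower for 8 of the 9 genes and slightly higher for DCTD, with a median log2 ratio of HTE over DMSO of −0.59. Over all named genes, 47.9% were lower and 49.3% were higher, with a median of 0.0 and a 5th to 95th percentile range of −0.80 to 0.99. RRM2, the radical subunit of ribonucleotide reductase, was the 1 gene of the 9 that was at least 2-fold lower, a threshold that 2.81% of all named genes passed, and no gene of the 9 was at least 2-fold higher, against 4.93% of all. At a 1.5-fold threshold, 5 of the 9 were lower, RRM2, SAMHD1, TK1, DUT and TYMS, against 9.42% of all named genes. DUT (1.51-fold) and TYMS (1.5-fold) passed it only narrowly, and the other DUT probe, at 1.39-fold, did not. Without RRM2 the median of the other genes was −0.57.

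Each gene was represented by its brightest probe in these counts. The ratios are on the log2 scale after subtracting the 75th percentile of each array, a signal of 4020.0 on the DMSO array and 3570.3 on the HTE array. Signals below are processed intensities before that scaling, each from 1 spot with the error given by the scanner software. That error leaves out the culture, and it gave an error of the log2 ratio between 0.204 and 0.255. For most probes it was close to a fixed share of the signal, such as 3160 of 31613 for RRM1 and 7540 of 75379 for TK1 with DMSO. It is thus not a separate reading of the scatter of each spot. In all, 8 of the 9 genes were lower by more than 0.204, as were 28.9% of all named genes. In bulk RNA, fewer cells carrying a transcript and less transcript per cell cannot be told apart.

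Ribonucleotide reductase consists of the catalytic subunit RRM1 and a radical subunit, either RRM2 in dividing cells or RRM2B. RRM2 (probe A_24_P225616, transcript NM_001034) had a signal of 909 ± 91.9 with DMSO and 183 ± 26.5 with HTE. After scaling this was 22.7% of the DMSO level, 4.41-fold lower, with a log2 ratio of −2.14 ± 0.255. Only 0.102% of named genes had a lower ratio. The spot stood 26.0 times above its local background with DMSO and 8.62 times with HTE, so the HTE value was fainter but still well above background.

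RRM1 (A_23_P87351, NM_001033) had a signal of 31613 ± 3160 with DMSO and 20114 ± 2010 with HTE, a log2 ratio of −0.48 ± 0.204. The level with HTE was 71.6% of that with DMSO. The log2 ratio of RRM2 minus that of RRM1 was −1.66, a difference larger than both software errors. RRM2B, the p53-inducible subunit that serves cells outside S phase, was measured by 2 probes. Their signals were 4063 with DMSO and 3914 with HTE for the brighter probe, a log2 ratio of 0.12, and 644 and 714 for the other probe, a log2 ratio of 0.32. The ratio of the brighter probe lay within its software error of 0.204, and its sign turned without scaling (−0.05) and with scaling to the E1A spike-in (−1.10). The log2 ratio of RRM2 minus that of the brighter RRM2B probe was −2.26.

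In the thymidylate branch, dCMP deaminase (DCTD) and dUTPase (DUT) both yield dUMP, thymidylate synthase (TYMS) methylates it to dTMP, and thymidylate kinase (DTYMK) phosphorylates the product. DCTD (A_24_P337334, NM_001012732) had a signal of 5804 ± 581 with DMSO and 5296 ± 530 with HTE, a log2 ratio of 0.04 ± 0.204. The level with HTE was 103% of that with DMSO, a difference smaller than the software error. DUT was measured by 2 probes of transcript NM_001025248. The brighter one (A_23_P88484) had 43127 ± 4310 with DMSO and 25304 ± 2530 with HTE, a log2 ratio of −0.60. The other (A_24_P160874) had 28612 ± 2860 and 18258 ± 1830, a log2 ratio of −0.48. Both DUT probes were lower after HTE, at 66.1% and 71.8% of the DMSO level, and differed from each other by less than their errors.

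TYMS (A_23_P50096, NM_001071) had 54804 ± 5480 with DMSO and 32346 ± 3230 with HTE, a log2 ratio of −0.59 ± 0.204 and 66.5% of the DMSO level. DTYMK (A_23_P123974, NM_012145) had 47075 ± 4710 and 32518 ± 3250, a log2 ratio of −0.36 ± 0.204 and 77.8% of the DMSO level. Among the members of this branch, DUT and TYMS were about equally lower, DTYMK was less so, and DCTD was not lower. The log2 ratio of DCTD exceeded that of DUT by 0.64. RefSeq names 8 pseudogenes after DUT, 3 after RRM2 and 2 after TYMS, and none after the other members, and whether transcripts of these copies reach the probes was not tested.

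The salvage kinases TK1, the cytosolic thymidine kinase known for its S-phase expression, and DCK, the deoxycytidine kinase that also phosphorylates deoxyadenosine and deoxyguanosine, were both lower. TK1 (A_23_P107421, NM_003258) had 75379 ± 7540 with DMSO and 41335 ± 4130 with HTE, a log2 ratio of −0.70 ± 0.204. This is 1.62-fold lower, at 61.7% of the DMSO level. DCK (A_24_P89080, NM_000788) had 2177 ± 218 and 1317 ± 133, a log2 ratio of −0.55 ± 0.205 and 68.1% of the DMSO level.

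The mitochondrial salvage kinases had ratios near 0, within their software errors of 0.204, at the reported scaling. TK2, the mitochondrial thymidine kinase, had 3301 with DMSO and 3077 with HTE, a log2 ratio of 0.07. DGUOK, the mitochondrial deoxyguanosine kinase, had 57960 and 47958, a log2 ratio of −0.10. The sign of TK2 turned with scaling to the median (−0.01), without scaling (−0.10) and with scaling to the E1A spike-in (−1.15). DGUOK had −0.27 without scaling and −1.32 with the spike-in. The log2 ratio of TK1 minus that of TK2 was −0.77, and that of DCK minus that of DGUOK was −0.452.

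SAMHD1, the triphosphohydrolase that degrades deoxynucleoside triphosphates, was measured by 2 probes of transcript NM_015474. The brighter one (A_24_P267592) had 6267 ± 627 with DMSO and 2797 ± 280 with HTE, a log2 ratio of −0.99 ± 0.204. This is 1.99-fold lower and lies just outside the 2-fold threshold. The other (A_33_P3406281) had 953 ± 96.3 and 512 ± 54.9, a log2 ratio of −0.72 ± 0.212. The 2 probes gave 50.3% and 60.5% of the DMSO level, so the hydrolase was lower, as were the other members but DCTD.

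**Figure D2:**
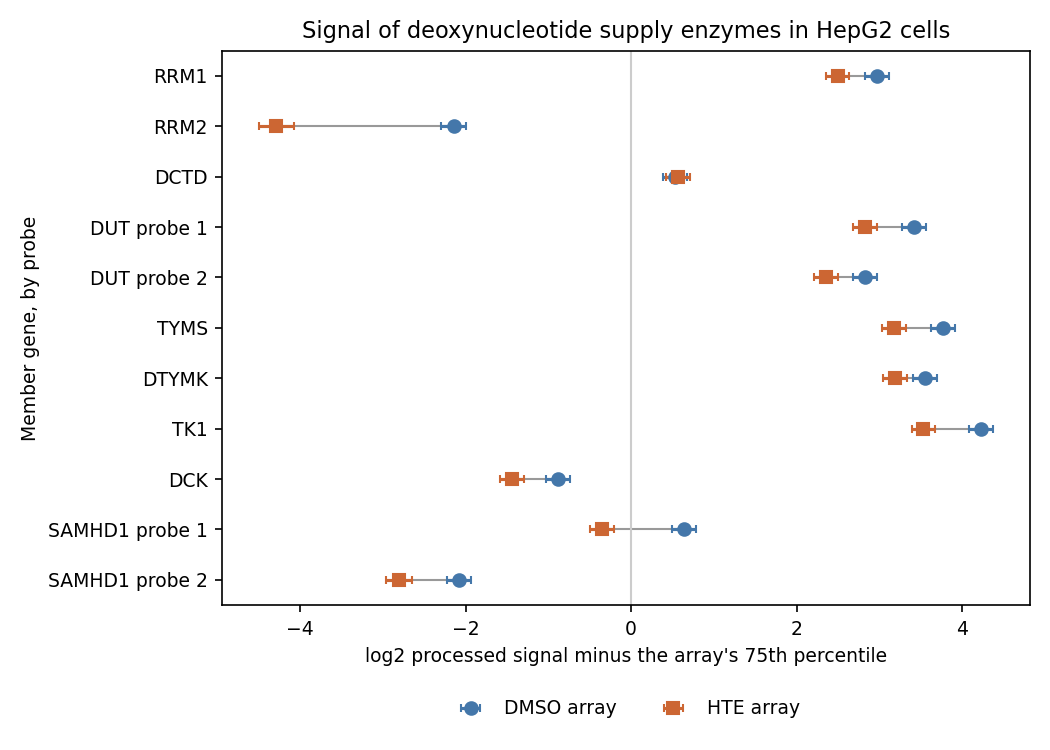
Signal of each probe of the 9 genes with DMSO (circles) and HTE (squares), as log2 processed signal minus the 75th percentile of the array, with 1 array per condition. Horizontal bars are the error given by the scanner software, and levels of different probes are not comparable with each other. The HTE value lies left of the DMSO value for every probe but that of DCTD, with the widest gap for RRM2.

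Ordered by ratio, the members ran from RRM2 through SAMHD1, TK1, DUT, TYMS, DCK, RRM1 and DTYMK to DCTD. Neighbours in this order overlapped within their software errors in 7 of 8 pairs. The 1 pair that lay apart was RRM2 and SAMHD1, with a gap of 1.15 on the log2 scale. By these errors, the order between SAMHD1 and DCTD is not resolved step by step. Other measures of error were smaller than the software error of the members. Replicate spots gave a median SD of the log2 ratio of 0.051 over 688 probes with at least 5 spots. Different probes of a gene gave 0.165 over 3759 genes.

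Values around the spots and the background-subtracted signal were also read. The median log2 ratio of the spots within 5 rows and columns of a member's spot was between −0.11 and 0.10. The lowest was that around RRM1, beside its own ratio of −0.48, and the highest that around RRM2, beside −2.14. The part of these surroundings in the ratios was not tested. The software's detrending step evens out gradients across the array. With the background-subtracted signal in place of the processed one, the log2 ratio was −2.15 for RRM2 and −1.04 for SAMHD1, which then passed 2-fold. The other members stayed between SAMHD1 and the 0.05 of DCTD. That signal is not simply the spot less its local background. For RRM2 with HTE it was 192.8, beside a spot median of 276 and a local background of 32. Other corrections, perhaps also of gradients, may therefore remain in it.

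**Figure D3:**
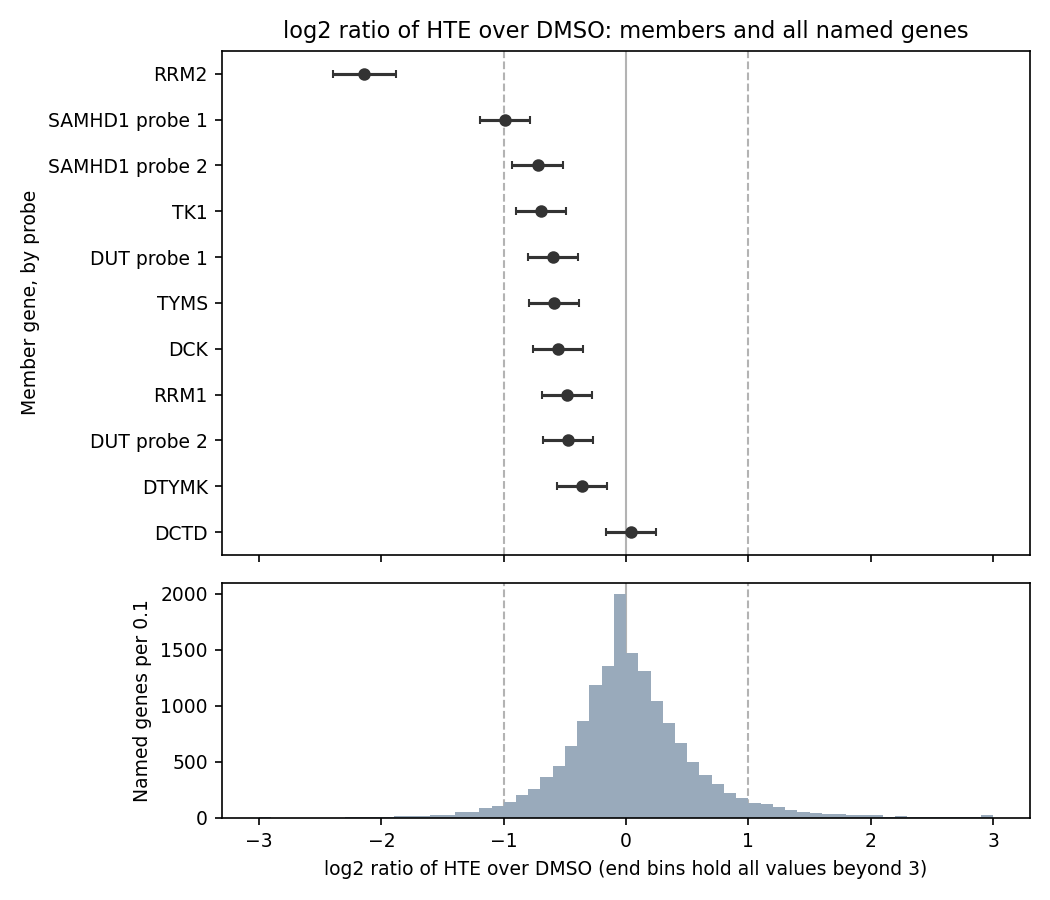
Log2 ratio of HTE over DMSO for each probe of the 9 genes (top, points with the software's error of the ratio) and the number of all 15631 named genes per 0.1 of the same ratio (bottom). Dashed lines mark 2-fold. RRM2 lies at −2.14 in the sparse left tail, and the other 10 probes lie between −0.99 and 0.04.

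The remaining enzymes and transporters of deoxynucleotide metabolism were described through a list of 26 genes, 25 of which were measured (UPP1 was not). Of these, 8 were lower and 16 were higher, and DPYD, not well above background with HTE, entered as a bound at 0.0. The median log2 ratio was 0.07, and 1 gene was at least 2-fold lower and 3 at least 2-fold higher. The lowest ratio was that of CMPK2, a mitochondrial UMP-CMP kinase, with a signal of 1117 with DMSO and 251 with HTE, a log2 ratio of −1.98. The highest ratio was that of CDA, the cytidine deaminase that also deaminates deoxycytidine, with 1318 and 5738, a log2 ratio of 2.29. NT5M, a mitochondrial deoxynucleotidase, went from 659 to 1423 (log2 ratio 1.28), and TXNRD1, the thioredoxin reductase that feeds electrons to ribonucleotide reductase, from 1021.5 to 1881 (1.05).

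CMPK1, the cytosolic UMP-CMP kinase, had a mean log2 ratio of 0.06 over 10 spots of its brighter probe and −0.10 with its other probe. NME1, a nucleoside diphosphate kinase, had a log2 ratio of −0.16.

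The pathways that make ribonucleotides had medians closer to 0 than the 9 enzymes. Of 13 genes of purine synthesis, 8 were lower and 5 higher, none by 2-fold, with a median log2 ratio of −0.25. The values ran from −0.91 for PRPS2, a phosphoribosyl pyrophosphate synthetase, to 0.17 for IMPDH1, an IMP dehydrogenase. All 5 genes of pyrimidine synthesis were lower, none by 2-fold, with a median of −0.29. Their range was from −0.79 for DHODH, the mitochondrial dihydroorotate dehydrogenase, to −0.15 for the brighter probe of CTPS2, a CTP synthase. The spots of the other CTPS2 probe that were not flagged as outliers gave lower ratios, from −0.48 to −0.26.

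The replication machinery was described through 14 genes, those of the MCM helicase and its loading and firing factors and PCNA. All 14 were lower, with 6 at least 2-fold lower and a median log2 ratio of −0.92. The lowest ratio was that of CDC6, a factor that loads the helicase, from 812 to 212 (−1.77), and the one nearest 0 that of PCNA, the sliding clamp, from 78320 to 49239 (−0.50) by the brightest of its 3 probes. The other PCNA probes gave −0.66 and −0.63. The median of the 9 supply enzymes thus lay between those of the ribonucleotide pathways and of the replication machinery. The ratios of RRM2 (−2.14 ± 0.255) and CDC6 (−1.77 ± 0.248) overlapped within their software errors.

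**Figure D4:**
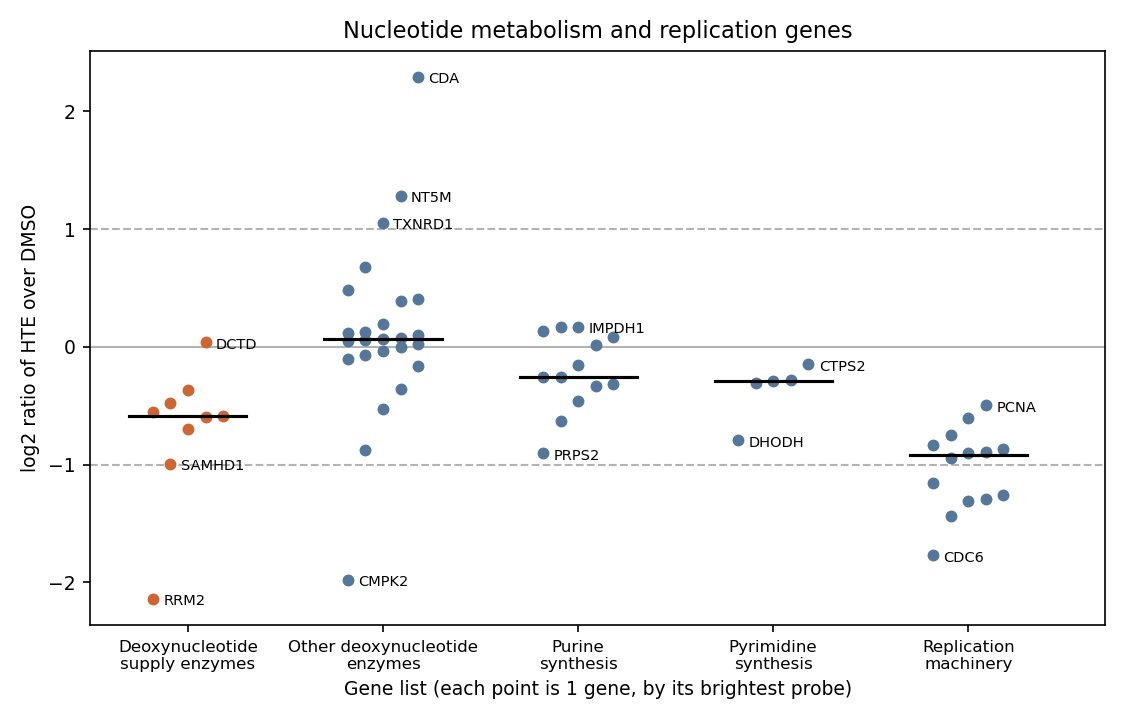
Log2 ratio of HTE over DMSO for the 9 supply enzymes and 4 other gene lists. Each point is 1 gene by its brightest probe, black bars are the median of each list, and dashed lines mark 2-fold. The medians are −0.59 for the supply enzymes, 0.07 for other deoxynucleotide enzymes, −0.25 and −0.29 for purine and pyrimidine synthesis and −0.92 for the replication machinery.

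The cell type was checked on its markers. All 12 hepatocyte markers, among them ALB, APOA1 and TTR, were well above background on both arrays. Their summed signal was 889400 with DMSO and 847300 with HTE. Of the 12, 5 were lower and 7 higher with HTE, none by 2-fold, and the median of their log2 ratios was 0.11. The ratios ran from −0.36 for FGB to 0.32 for AHSG. ALB, APOA1 and TTR were among the higher ones. Of 10 markers of blood, stromal and endothelial cells, 5 were well above background on both arrays, with a summed signal over the list of 8081 and 8121. The 6 markers with a usable probe had a median log2 ratio of −0.31, from −1.82 for the endothelial marker PECAM1 to 0.46 for the macrophage marker CD68. That median includes COL3A1, which was not well above background with HTE and entered as a bound at 0.0. CD3E, COL1A2 and KDR were not well above background on either array, and no probe was matched to LYZ. The part of these markers in the ratios of the supply enzymes was not tested.

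The signs of the ratios were followed through 13 ways of processing the same spots. RRM2 had the lowest ratio, SAMHD1 the next and DCTD the highest in all 13. The log2 ratio of RRM2 was between −2.31 and −1.71 in all of them but scaling to the E1A spike-in, which gave −3.36. DCTD had a log2 ratio of −0.04 with scaling to the median, −0.13 without scaling and −1.18 with the spike-in. The median of the 9 enzymes minus the median of all named genes was between −0.68 and −0.55 throughout.

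**Figure D5:**
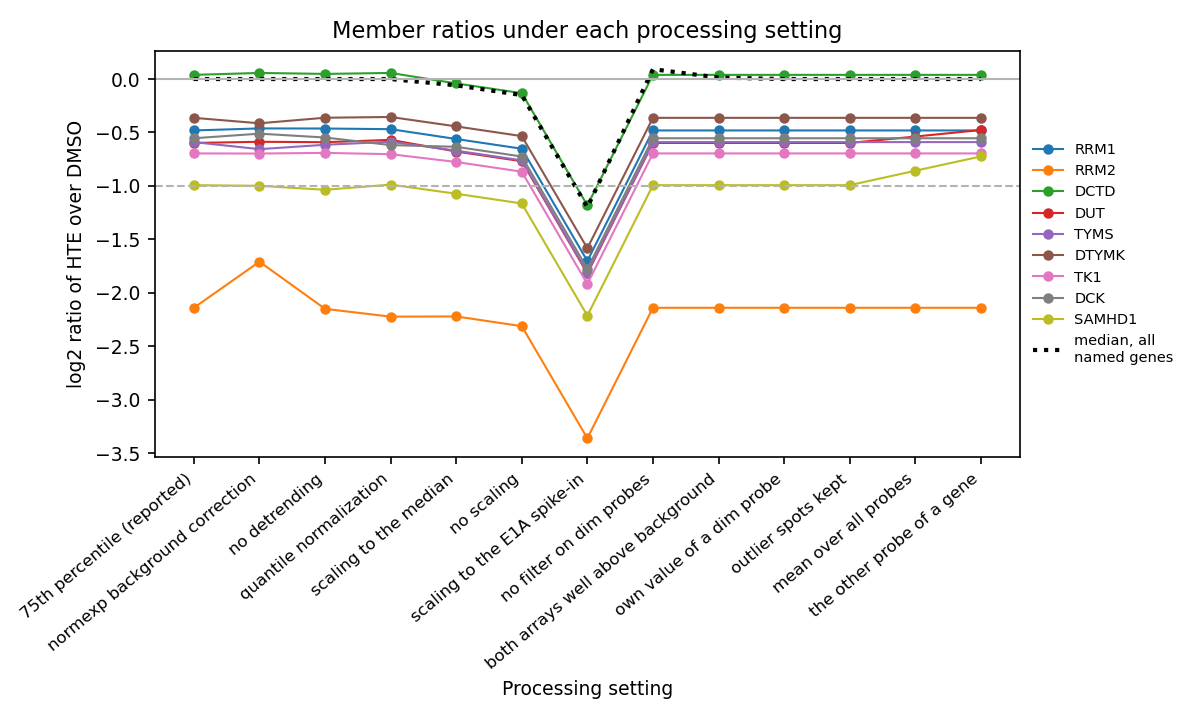
Log2 ratio of HTE over DMSO of each of the 9 genes under 13 processing settings, with the median of all named genes (dotted) and 2-fold (dashed). Lines join the values of a gene to guide the eye and do not imply an order of settings. All genes shift together where the scaling differs, and RRM2 stays lowest.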

How the data were processed

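Total RNA of DMSO-treated and HTE-treated HepG2 cells was labelled with Cy3 and hybridised to 1-colour Agilent SurePrint G3 human arrays, 1 array per group, at different positions of the same slide, per the file headers. The authors deposited the Feature Extraction output of each array (version 11.5.1.1 in the file header, 10.7 in the submitters' processing notes). Its processed signal is an intensity that the software had background-subtracted and detrended, and the authors had not scaled it between arrays. Each array held 58717 non-control spots of 50599 probes, of which 60.6% (DMSO) and 56.6% (HTE) were well above background and 0 saturated. Precision is limited by having 1 array per group.

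Spots marked as controls or outliers were removed, log2 was taken, the 75th percentile of each array was subtracted and the spots of each probe were averaged. Probes were used if 1 array or both had at least 0.5 of their spots flagged well above background. A probe that was not well above background on 1 array entered with a bound. The array files hold no gene names, so probes were named through the unversioned RefSeq accession with RefSeq's GRCh38.p14 table, where 28174 probes matched. The header names another build, so no probe coordinates are given. Promoter windows are those of a RefSeq table of GRCh38.p14. A gene was taken as its brightest probe and called at 2-fold. With 1 array per group no test was run. All 9 members with every probe, 5 related enzymes (RRM2B, TK2, DGUOK, CMPK1 and NME1) and, per list, the genes with the highest and the lowest ratio were named; NT5M, TXNRD1 and the printed markers were chosen after their values were seen. One more gene of the lists is not reported here and was left out of their counts. Members and lists were chosen with earlier results of these data known. Steps were tested on simulated data. Python 3.11.15 (numpy 2.4.6, pandas 2.3.3, matplotlib 3.10.9) and R 4.3.3 with limma 3.58.1 were used.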

Additional observations from a re-analysis of the deposited data

How the results depend on the processing

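The direction of the median log2 ratio of the 9 enzymes held under all 12 alternatives, and at least 8 of the 9 were lower in each. No scaling, scaling to the median and scaling to the E1A spike-in gave 9 of 9. The median was −0.67 with scaling to the median, −0.76 without scaling and −1.81 with the spike-in, where the median of all named genes was −0.06, −0.15 and −1.20. The number of the 9 at least 2-fold lower was 2 with the background-subtracted signal in place of the processed one, with scaling to the median and without scaling. It was 9 with the spike-in and 5 at a 1.5-fold cutoff. In the same order of settings, the named genes past the cutoff numbered 444, 546, 724, 10691 and 1473, beside 439 of 15631 as reported. The genes called lower and higher over the whole array numbered 439 and 770, 63.7% of calls being higher. Without scaling they numbered 724 and 546 (43.0% higher), and with the spike-in 10691 and 81 (0.752% higher). They were 1473 and 1933 (56.8% higher) at 1.5-fold and 79 and 247 (75.8% higher) at 3-fold, and 818 and 1143 (58.3% higher) without the filter on dim probes. The sign of the median of the other deoxynucleotide enzymes turned with scaling to the median (−0.01), without scaling (−0.10) and with the spike-in (−1.15). The cause of these shifts was not tested. The alternative of naming probes by the array design was not run because the files hold no gene names. No paired analysis was possible because each group has 1 array and no shared culture is labelled. One array per group, and a spot of RRM2 that was 8.62 times its local background with HTE, limit what these values can show.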
